A study of Mus musculus with 137 samples.

Results

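Single mouse embryos at the 2-cell stage that had developed in the NR5A2 inhibitor SR1848 differed widely in how much Zscan4 mRNA they held, and the embryos with the most were set against those with the least. The 40 SR1848 embryos of both experiments (16 and 24, without embryo 8 of experiment 1, a library of 614574 counts) were chosen by rank within their experiment on the summed CPM (counts per 1000000 gene counts) of Zscan4c, Zscan4d and Zscan4f. The upper 5 embryos of experiment 1 and 8 of experiment 2 are called high-Zscan4 embryos, and as many from the bottom of each ranking low-Zscan4 embryos. The comparison therefore used 26 of the 137 embryos of the series, 13 on each side. The 14 embryos between them, called middle embryos, and 16 DMSO embryos of experiment 1 are given beside them. The question was what else varied between inhibited embryos.

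All embryos were of the B6129F1 strain, were isolated as zygotes 5 hours after fertilization and were cultured without oil, and no embryo used here had been injected. From 6 hours on, the high-Zscan4 and low-Zscan4 embryos alike received 10 µM SR1848, and the DMSO embryos 0.1% of the solvent. Each library is polyadenylated RNA of 1 whole embryo, made by SmartSeq2 with oligo-dT priming. Levels are therefore shares of an embryo's mRNA, and less of an mRNA cannot be told apart from more of all others. The labels name no parents or litters, so p-values measure the spread between embryos. DMSO embryos of experiment 2 were not used, since most of them held Nr5a2 and GFP mRNA against their label.

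Zscan4 genes form a cluster of near-identical copies on mouse chromosome 7, code for zinc finger proteins with a SCAN domain, and are known for a burst of expression when the mouse embryonic genome is first transcribed at the 2-cell stage. In embryonic stem cells they mark a rare, passing state in which other 2-cell genes are also on, and the double homeobox factor DUX can switch on many of these genes. NR5A2 is an orphan nuclear receptor that binds DNA as a monomer, and SR1848 is a small molecule that inhibits it.

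The values that chose the embryos are given as a description, with no test. The summed level was 575, 393, 293, 291 and 233 CPM in the high-Zscan4 embryos of experiment 1, against 87.1, 64.7, 63.6, 36.5 and 9.61 CPM in the low-Zscan4 embryos. In experiment 2 it ran from 223 to 1200 CPM (median 417) in high-Zscan4 embryos and from 21.1 to 80.6 CPM (median 62.8) in low-Zscan4 embryos. These groups are apart by construction, and the edges were close: the lowest high-Zscan4 embryo and the next below it had 233 and 227 CPM in experiment 1 and 223 and 218 CPM in experiment 2. At the lower edge, the lowest middle embryo and the highest low-Zscan4 embryo had 107 and 87.1 CPM in experiment 1 and 89.1 and 80.6 CPM in experiment 2. Between the highest and lowest SR1848 embryo the sum differed 59.9-fold in experiment 1 and 56.9-fold in experiment 2. DMSO embryos of experiment 1 spanned 32.9 to 123 CPM (median 60.9), a 3.73-fold range. In all, 25 of 40 SR1848 embryos were above the highest DMSO embryo and 3 were below the lowest.

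The 3 ranking genes chose the embryos, so their differences follow from the rule, and their copies share reads. Zscan4f had 184 to 425 CPM (median 259) in high-Zscan4 embryos and 2.32 to 71.6 CPM (median 36.4) in low-Zscan4 embryos. Zscan4d had 17.1 to 218 CPM (median 48.1) in high-Zscan4 embryos and 0.622 to 26.0 CPM (median 7.88) in low-Zscan4 embryos. Zscan4c had 2.07 to 668 CPM (median 15.4) in high-Zscan4 embryos and 0 to 8.70 CPM (median 4.48) in low-Zscan4 embryos. The 668 CPM belonged to embryo 18 of experiment 2, and the next highest Zscan4c level was 105 CPM, in embryo 15 of the same experiment. For Zscan4c and Zscan4d the lowest high-Zscan4 embryos overlapped the low ones, while for Zscan4f the groups did not overlap. All 9 Zscan4 symbols were left out of the results that follow.

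**Figure D1:**
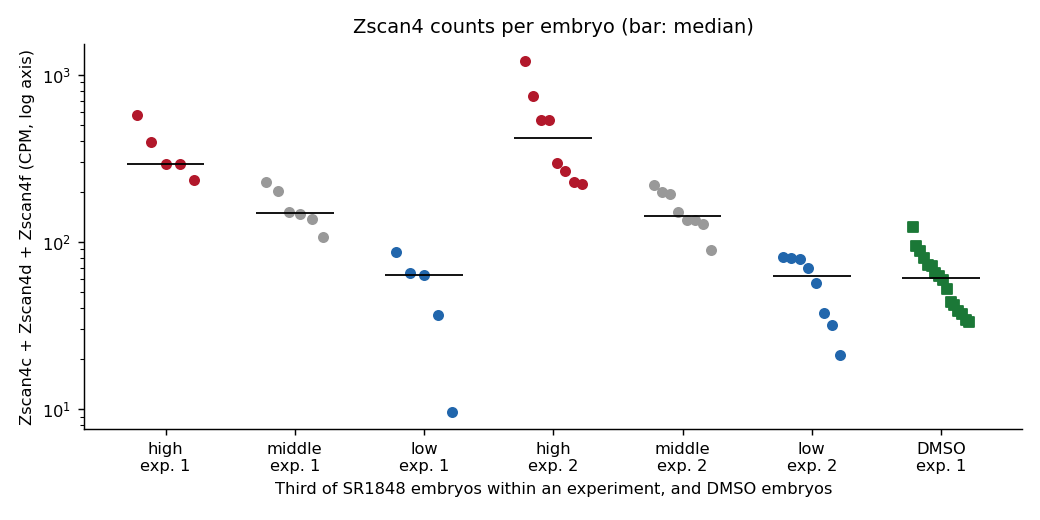
Summed CPM of Zscan4c, Zscan4d and Zscan4f (log axis) for each SR1848 embryo, by rank group and experiment, and for DMSO embryos of experiment 1; each point is 1 embryo and bars are medians. SR1848 embryos ran from 9.61 to 1200 CPM, while the 16 DMSO embryos stayed between 32.9 and 123 CPM.

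Many other 2-cell and ribosomal protein genes, and some chaperone genes, were higher in high-Zscan4 embryos, and a smaller set that included a few oocyte transcripts was lower. By edgeR's quasi-likelihood test, with experiment as a term and Benjamini-Hochberg adjustment at 0.05, 447 genes were higher and 135 lower among 10647 tested, which is 4.2% and 1.27% of genes. The higher genes had fold changes of 0.43 to 5.51 on the log2 scale (median 1.80), and 389 of the 447 exceeded 1. The lower genes had smaller differences, -1.70 to -0.35 (median size 0.57), and 4 of 135 exceeded 1 in size. The groups overlapped for every gene: for none of the 10647 did all 13 high-Zscan4 embryos lie on one side of all 13 low-Zscan4 embryos (0% of genes). Without embryos 15 and 18 of experiment 2, which had the most Zscan4, 234 genes were higher and 43 lower, and without embryo 4 of experiment 1 these were 284 and 66.

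**Figure D2:**
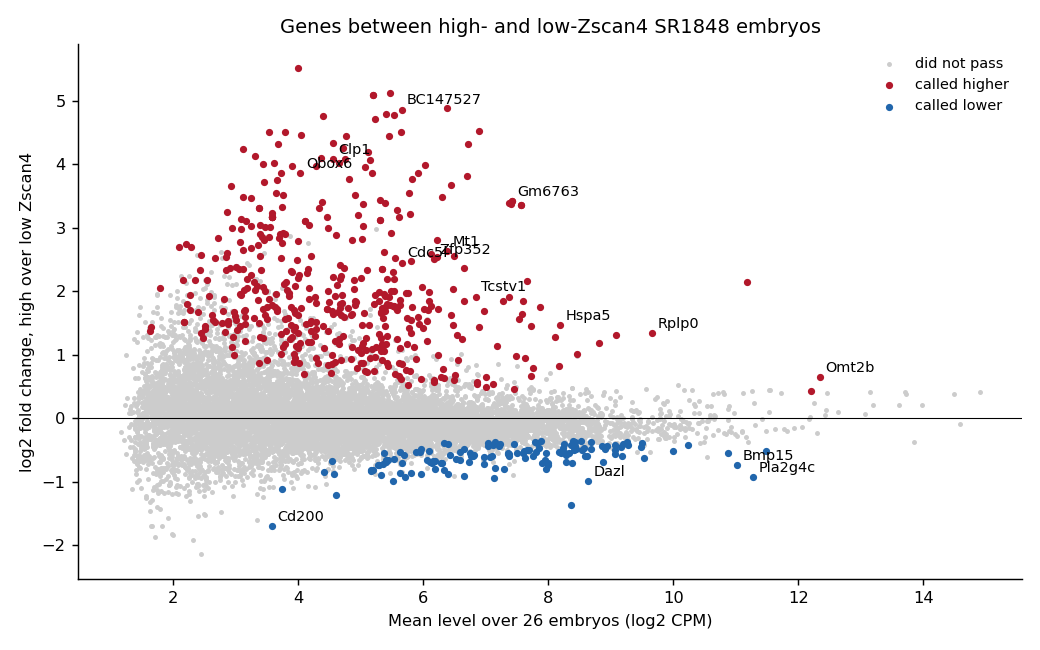
Fitted log2 fold change (high over low Zscan4) against the mean level over 26 embryos (log2 CPM) for 10647 genes; red genes were called higher, blue genes lower, and grey genes did not pass. The 447 higher genes reach 5.51 on the log2 scale, while the 135 lower genes lie between -1.70 and -0.35.

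Both experiments alone tested 414 of the 447 higher genes and all 135 lower genes. The other 33 higher genes were not tested in 1 of them. The fold changes of these 414 and 135 had the same sign in both experiments. The genes were called on both experiments together, which favours equal signs, and the share among all genes was not computed. Experiment 1 alone, with 5 embryos a side, gave no gene past the adjusted threshold in edgeR (0% higher and 0% lower), with 603 of 10534 genes at an unadjusted p under 0.05. Experiment 2 alone, with 8 a side, called 373 genes higher (3.45%) and 41 lower (0.379%). Those calls were looked up in the embryos of experiment 1, which had no part in them. Of 340 such higher genes tested there, 326 had a positive fold change (50.4% of all genes did) and 170 also had an unadjusted p under 0.05, against 3.56% of all genes. Of 41 lower genes, 38 had a negative fold change (49.6% of all genes did) and 8 an unadjusted p under 0.05, against 2.16%. These genes are not separate observations, since some are copies that share reads and all signs come from the same embryos. The look-up was not repeated without embryo 4 of experiment 1. In edgeR no gene had a difference that itself differed between experiments after adjustment (353 of 10647 had an unadjusted p under 0.05).

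**Figure D3:**
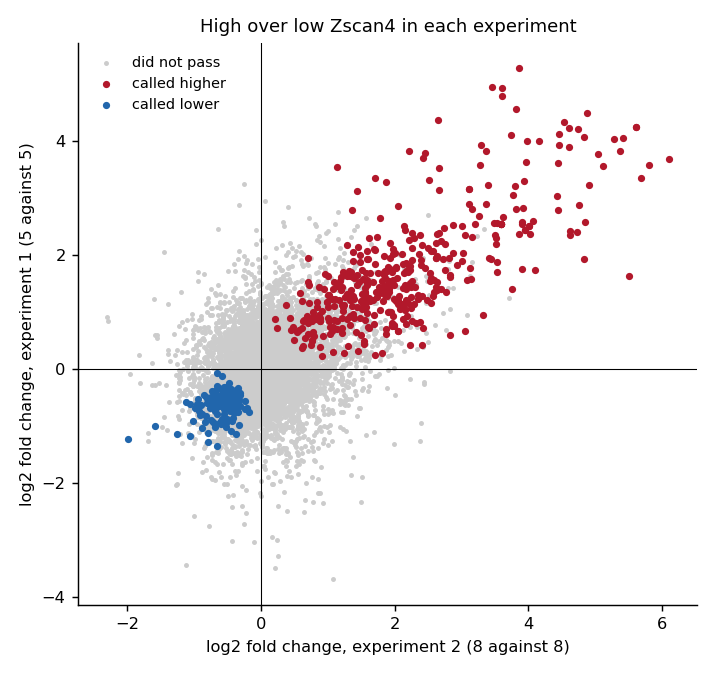
Log2 fold change of high over low Zscan4 in experiment 1 (5 against 5 embryos) against that in experiment 2 (8 against 8) for genes tested in both. The called genes shown (414 in red, higher, and 135 in blue, lower) all lie in the quadrants of equal sign. They were called on both experiments together, which favours equal signs.

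The 14 middle embryos were on neither side of the comparison and offered a separate reading. Within them, each gene was fitted against log2 of the Zscan4 sum, with experiment as a term. No slope passed the adjusted threshold in edgeR (0% in either direction of 7801 genes), and 622 had an unadjusted p under 0.05. Of the 264 higher genes tested there, 251 had a positive slope (48.6% of all genes did) and 126 a positive slope with an unadjusted p under 0.05 (4.61% of all genes). Of 134 lower genes, 114 had a negative slope (51.4% of all genes did) and 13 one with an unadjusted p under 0.05 (3.36%). All slopes come from the same 14 embryos, so here too the genes are not separate observations. The 3 middle embryos with the most counts from the 2-cell list described next, embryos 23, 11 and 17 of experiment 2, had 0.606%, 0.593% and 0.514% of counts from it, with 218, 198 and 127 CPM of Zscan4.

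Transcripts known from the 2-cell stage were often higher. Of 64 such genes (Zscan4 aside) 43 were tested; 20 were higher and none lower (46.5% higher, against 4.2% of all genes), with a median log2 fold change of 1.68 against -0.0031 over all genes. They made up 0.191% to 0.873% of counts (median 0.409%) in high-Zscan4 embryos and 0.140% to 0.308% (median 0.238%) in low-Zscan4 embryos. The medians of high-Zscan4 and low-Zscan4 embryos were close in experiment 1 (0.254% and 0.25%) and apart in experiment 2 (0.514% and 0.231%). Of the 13 high-Zscan4 embryos 8 were above the highest low one, and embryos 10, 5 and 12 of experiment 1 and embryos 4 and 8 of experiment 2 were within the low range. DMSO embryos had 0.641% to 1.04% (median 0.830%). A high Zscan4 level was thus not always accompanied by more counts from the list: embryo 10 of experiment 1 had the second highest Zscan4 sum of its experiment, 393 CPM, and 0.191% of counts from it. The same embryo had the fewest genes detected of the 26, 11236 at a common depth of 1000000 counts.

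Tcstv1 and Tcstv3 code for small proteins of 2-cell embryos whose genes lie together on chromosome 13. Tcstv1 (chr13:119893388-119894785, minus strand, GRCm38) had 51.8 to 392 CPM (median 147) in high-Zscan4 embryos, 26.4 to 69.2 CPM (median 48.2) in low-Zscan4 embryos and 2.36 to 60.0 CPM (median 11.7) in DMSO embryos. All 13 high-Zscan4 embryos were above the low median (log2 fold change 1.91, SE 0.28, edgeR adjusted p = 0.000104), although the lowest of them overlapped the low group. Its slope over the middle embryos was 2.11 (unadjusted p = 0.00017 by edgeR). Tcstv3 was higher by 3.48 on the log2 scale (SE 0.54, edgeR adjusted p = 0.000257), with medians of 52.2 CPM in high-Zscan4 and 10.3 CPM in low-Zscan4 embryos.

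Zfp352 (chr4:90218820-90225702), a zinc finger gene of the 2-cell stage, had 20.5 to 271 CPM (median 81.1) in high-Zscan4 embryos, against 3.25 to 53.8 CPM (median 15.8) in low-Zscan4 embryos. The difference was 2.50 log2 (SE 0.39, edgeR adjusted p = 0.000257), all 13 high-Zscan4 embryos were above the low median, and the groups overlapped at 20.5 to 53.8 CPM. DMSO embryos had 1.94 to 141 CPM (median 57.0). Gm8300, one of the Eif1a-like copies on chromosome 12, had 3.54 to 376 CPM (median 42.1) in high-Zscan4 embryos and 0 to 6.29 CPM (median 1.79) in low-Zscan4 embryos (log2 fold change 4.79, SE 0.73, edgeR adjusted p = 0.000216). The deubiquitinase Usp17lb was higher by 2.37 log2 (SE 0.43), and Tmem92, a membrane protein gene, by 1.02 (SE 0.18).

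Genes of the 2-cell list differed in where their levels stood relative to DMSO embryos. Obox6, a homeobox gene of the oocyte and early embryo (chr7:15833241-15839678), had 0 to 118 CPM (median 5.05) in high-Zscan4 embryos and 0 to 6.22 CPM (median 1.16) in low-Zscan4 embryos, while DMSO embryos had 641 to 903 CPM (median 756). It was higher in high-Zscan4 embryos by 3.86 log2 (SE 0.87, edgeR adjusted p = 0.00572), with 11 of 13 above the low median; without embryo 4 of experiment 1 the adjusted p was 0.0822. Trim43a, a tripartite motif gene with near-identical copies, had medians of 7.39, 0.489 and 707 CPM in high-Zscan4, low-Zscan4 and DMSO embryos. Tdpoz1, of a family with a TRAF and a BTB domain, was at 1.96 to 70.8 CPM (median 6.99) in high-Zscan4 embryos, 0 to 4.65 CPM (median 0.802) in low-Zscan4 embryos and 19.9 to 260 CPM (median 69.4) in DMSO embryos. Gm6763 went the other way: it had medians of 195 CPM in high-Zscan4, 20.2 CPM in low-Zscan4 and 3.28 CPM in DMSO embryos (log2 fold change 3.42, SE 0.61). Duxf3, the gene of DUX, had medians of 2.72 CPM in high-Zscan4 and 2.40 CPM in low-Zscan4 embryos and did not pass (log2 fold change -0.67, SE 0.67, edgeR adjusted p = 0.684).

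**Figure D4:**
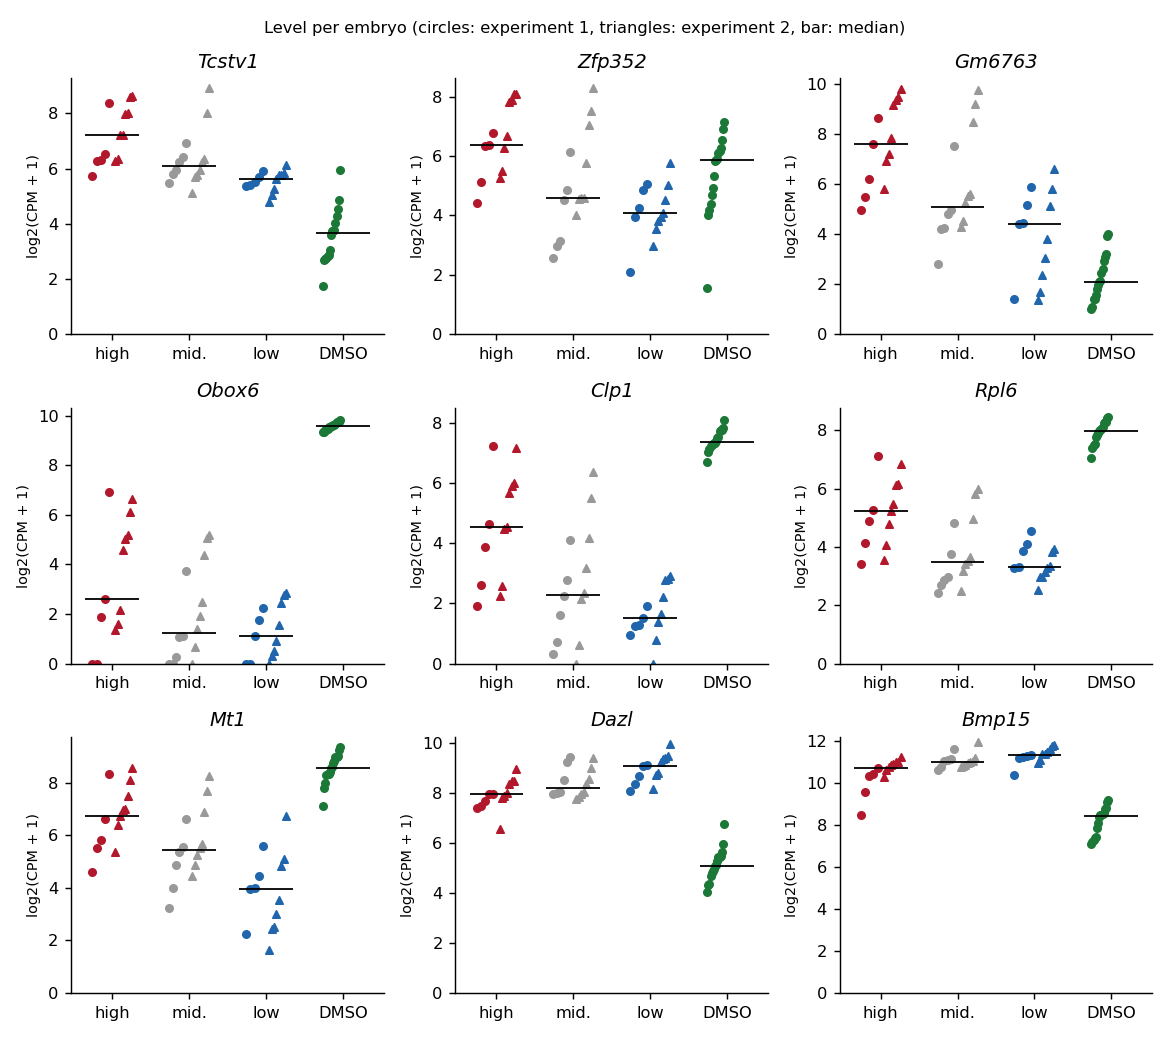
Level of 9 genes in each embryo, as log2(CPM + 1), in high-Zscan4, middle and low-Zscan4 SR1848 embryos and in DMSO embryos of experiment 1; circles are experiment 1, triangles experiment 2, and bars medians. Tcstv1 and Gm6763 have lower medians in DMSO (11.7 and 3.28 CPM) than in low-Zscan4 embryos (48.2 and 20.2 CPM), whereas Obox6, Clp1 and Rpl6 lie far above the SR1848 medians in DMSO.

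Among the 12 higher genes with the largest fold changes by the naming rule, BC147527, D13Ertd608e and AF067061 lie beside the Tcstv genes. BC147527 (chr13:120300392-120308779) had 1.61 to 307 CPM (median 35.5) in high-Zscan4 embryos and 0 to 12.0 CPM (median 2.40) in low-Zscan4 embryos (log2 fold change 4.86, SE 0.79, edgeR adjusted p = 0.000365). AC127331.6 and AC127331.1, neighbouring processed pseudogenes by the annotation, were higher by 4.52 and 4.32 log2. Clp1, an RNA kinase of tRNA splicing and of mRNA 3′ end formation (chr2:84722104-84727350, minus strand), had 2.75 to 151 CPM (median 22.4) in high-Zscan4 embryos and 0 to 6.62 CPM (median 1.85) in low-Zscan4 embryos. All 13 high-Zscan4 embryos were above the low median (4.08 log2, SE 0.62, edgeR adjusted p = 0.000205), and DMSO embryos had 103 to 275 CPM. Snapc2, a subunit of the complex that starts small nuclear RNA genes, was higher by 3.76 log2 (SE 0.70). H2-Q6, a class Ib histocompatibility gene with close copies, was higher by 4.10 (SE 0.67), and Rbm8a2, a copy of an exon junction protein gene, by 4.03 (SE 0.77).

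Gm2a, the activator of lysosomal ganglioside breakdown, rested on single embryos. It had 0 to 404 CPM (median 2.39) in high-Zscan4 embryos and 0 to 6.72 CPM (median 2.28) in low-Zscan4 embryos, so the medians were close while the fitted fold change was 4.26 log2 (SE 1.08, edgeR adjusted p = 0.0146). The 404 CPM were in embryo 18 of experiment 2, without which the adjusted p was 0.333; without embryo 4 of experiment 1 it was 0.145. DMSO embryos had 104 to 711 CPM (median 359).

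Neighbouring higher genes were grouped after their values had been seen, with starts at most 200000 bases apart and at least 5 higher genes a group, which gave 9 groups; they are described without a test. The Tcstv group (chr13:119827961-120318178) held 12 higher genes of 13 tested, with fold changes of 1.91 to 4.89 log2. Its summed level was 110 to 4730 CPM (median 924) in high-Zscan4 embryos, 76.9 to 275 CPM (median 123) in low-Zscan4 embryos and 204 to 1690 CPM (median 501) in DMSO embryos. On chromosome 10 (104142987 to 104188000) all 6 tested genes, Gm6763 among them, were higher, with sums of 177 to 5170 CPM (median 1150) in high-Zscan4 embryos, 13.5 to 612 CPM (median 121) in low-Zscan4 embryos and 6.23 to 90.7 CPM (median 17.2) in DMSO embryos. A group of 10 pseudogenes on chromosome 11 (60560924 to 60693075), all 10 tested being higher, stood the other way to DMSO, with 12.9 to 1350 CPM (median 224) in high-Zscan4, 12.5 to 147 CPM (median 42.4) in low-Zscan4 and 1680 to 4440 CPM (median 2520) in DMSO embryos. The Tdpoz group of chromosome 3 (93936633 to 94266784) held 8 higher genes of 9, and the Eif1a-like group of chromosome 12 (87514316 to 87877859) 7 of 8. Of the 447 higher genes 117 carry a Gm number as symbol (26.2%), against 1 of 135 lower genes and 5.35% of all genes. Counts of such copies are estimates that share reads: 21 higher genes had the same counts as another one in every embryo of the 26 (within 0.001 CPM), so fewer separate signals stand behind the 447.

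Promoters of the Zscan4 genes and of some of these cluster genes share a short motif, GATTNAAT, and 5 are shown. Zscan4c and Zscan4d are ranking genes, and the other 3 were called higher in the split that the ranking made. The sequences are RefSeq's (GRCm38.p6), 250 bases before to 50 after the start of the gene, and all 5 genes have an entry. Capitals mark matches on either strand to GATTNAAT, the core of the motif known for DUX, and to AAGGTCA, the half-site bound by NR5A receptors. Zscan4c is chr7:11005495-11005794 on the plus strand, Zscan4d chr7:11166099-11166398 on the minus strand, AF067061 chr13:120262845-120263144, BB287469 chr12:87816327-87816626 and Gm21293, a copy of the Gm6763 group, chr10:104142737-104143036, the last 3 on the plus strand. BB287469 is an Eif1a-like copy with a fold change of 5.51 log2.
Zscan4c: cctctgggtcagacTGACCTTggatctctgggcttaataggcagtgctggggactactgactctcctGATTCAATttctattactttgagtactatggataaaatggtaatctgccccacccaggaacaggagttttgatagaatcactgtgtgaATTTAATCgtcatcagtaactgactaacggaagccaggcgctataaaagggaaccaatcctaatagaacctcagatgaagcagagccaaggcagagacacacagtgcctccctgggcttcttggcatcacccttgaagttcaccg
Zscan4d: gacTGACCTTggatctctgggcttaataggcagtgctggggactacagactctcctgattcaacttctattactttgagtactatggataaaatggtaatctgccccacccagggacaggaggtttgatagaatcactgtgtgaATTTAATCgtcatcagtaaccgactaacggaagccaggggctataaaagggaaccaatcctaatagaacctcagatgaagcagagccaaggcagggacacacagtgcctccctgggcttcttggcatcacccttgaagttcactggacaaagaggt
AF067061: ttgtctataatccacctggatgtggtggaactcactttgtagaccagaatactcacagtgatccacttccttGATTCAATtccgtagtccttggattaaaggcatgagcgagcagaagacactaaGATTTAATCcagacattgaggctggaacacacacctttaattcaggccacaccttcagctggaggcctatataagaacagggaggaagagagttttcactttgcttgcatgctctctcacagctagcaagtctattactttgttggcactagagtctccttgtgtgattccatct
BB287469: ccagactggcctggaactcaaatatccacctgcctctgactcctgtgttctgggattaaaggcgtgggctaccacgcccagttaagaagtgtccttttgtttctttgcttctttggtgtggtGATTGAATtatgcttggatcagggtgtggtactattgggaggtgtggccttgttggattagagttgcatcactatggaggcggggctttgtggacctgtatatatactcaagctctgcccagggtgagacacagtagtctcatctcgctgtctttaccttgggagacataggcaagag
Gm21293: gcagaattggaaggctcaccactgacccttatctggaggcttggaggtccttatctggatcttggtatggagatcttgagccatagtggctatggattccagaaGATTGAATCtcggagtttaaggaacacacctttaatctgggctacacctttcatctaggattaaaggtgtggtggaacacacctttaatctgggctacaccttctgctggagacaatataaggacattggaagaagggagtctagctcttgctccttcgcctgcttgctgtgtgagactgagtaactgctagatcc

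GATTNAAT matched at 2 positions in the Zscan4c promoter, 1 in Zscan4d, 3 in AF067061, 1 in BB287469 and 2 in Gm21293. A capital run of 9 letters is a match on both strands that overlap by all but 1 letter. AAGGTCA, here on the opposite strand, was found 236 bases before the start in Zscan4c and 247 bases before it in Zscan4d, and in none of the other 3. Across promoters of genes tested, 141 of 10337 (1.36%) held GATTNAAT, against 19 of 329 promoters (5.78%) of higher genes and 0 of 141 of lower genes. The 19 belong mostly to near-identical copies in the groups above, and also to Gpx1, Rpl24 and Fam110a, so they are not separate observations. All 4 Zscan4 promoters searched held it, and all 4 held AAGGTCA too. AAGGTCA was in 12 of 329 promoters of higher genes (3.65%), 4 of 141 of lower genes (2.84%) and 3.23% of those of genes tested. AAGGCCA, the NR5A half-site with C in place of T, is not marked in the sequences. Of the promoters shown, only that of BB287469 held it. It was in 20 of 329 promoters of higher genes (6.08%), 5 of 141 of lower genes (3.55%) and 5.17% of those of genes tested. TGCACAC, a motif reported for ZSCAN4 itself, was in 16 of 329 (4.86%) promoters of higher genes, 7 of 141 (4.96%) of lower genes and 3.89% of those of genes tested.

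Ribosomal protein genes, which code for the structural proteins of the ribosome, were also higher in large number. Of 77 tested 33 were higher and none lower (42.9% against 4.2% of all genes), with a median log2 fold change of 1.08. They made up 0.203% to 0.765% of counts (median 0.431%) in high-Zscan4 embryos and 0.169% to 0.360% (median 0.256%) in low-Zscan4 embryos; 7 of 13 high-Zscan4 embryos were above the highest low one. DMSO embryos had 1.06% to 1.98% (median 1.44%), above every embryo of both groups. Rpl6, of the large subunit, had 9.67 to 138 CPM (median 36.6) in high-Zscan4 embryos, 4.70 to 22.6 CPM (median 8.95) in low-Zscan4 embryos and 131 to 353 CPM (median 251) in DMSO embryos. All 13 high-Zscan4 embryos were above the low median, although the groups overlapped (2.18 log2, SE 0.36, edgeR adjusted p = 0.000426). Rplp0, of the stalk, was higher by 1.34 (SE 0.23), and pseudogene copies of both can share reads. The count of higher members was 20 without embryo 4 of experiment 1, 14 without embryos 15 and 18 of experiment 2, and 20 with the number of detected genes as a term.

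Factors that assemble ribosomes in the nucleolus stood alongside: 14 of 80 were higher and none lower (17.5%, against 4.2% of all genes), with a median of 0.53 log2. They made up 0.246% to 0.461% of counts (median 0.329%) in high-Zscan4 embryos, 0.249% to 0.301% (median 0.271%) in low-Zscan4 embryos and 1.76% to 2.34% (median 1.97%) in DMSO embryos. Nolc1, a nucleolar chaperone of small ribonucleoproteins, had 11.5 to 193 CPM (median 58.4) in high-Zscan4 embryos and 12.5 to 36.5 CPM (median 22.1) in low-Zscan4 embryos (1.71 log2, SE 0.31, edgeR adjusted p = 0.00107). Its DMSO levels were 492 to 889 CPM, so that the high-Zscan4 embryos remained below the lowest DMSO embryo. Imp3, of the small-subunit processome, was higher by 1.64 (SE 0.36), and Nob1, the endonuclease of the last 18S cleavage, by 2.05 (SE 0.48). Without embryos 15 and 18 of experiment 2 the count was 6 and the adjusted p of Nob1 was 0.0828, and with detected genes as a term that of Imp3 was 0.0555. Without embryo 4 of experiment 1 the count was 7.

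**Figure D5:**
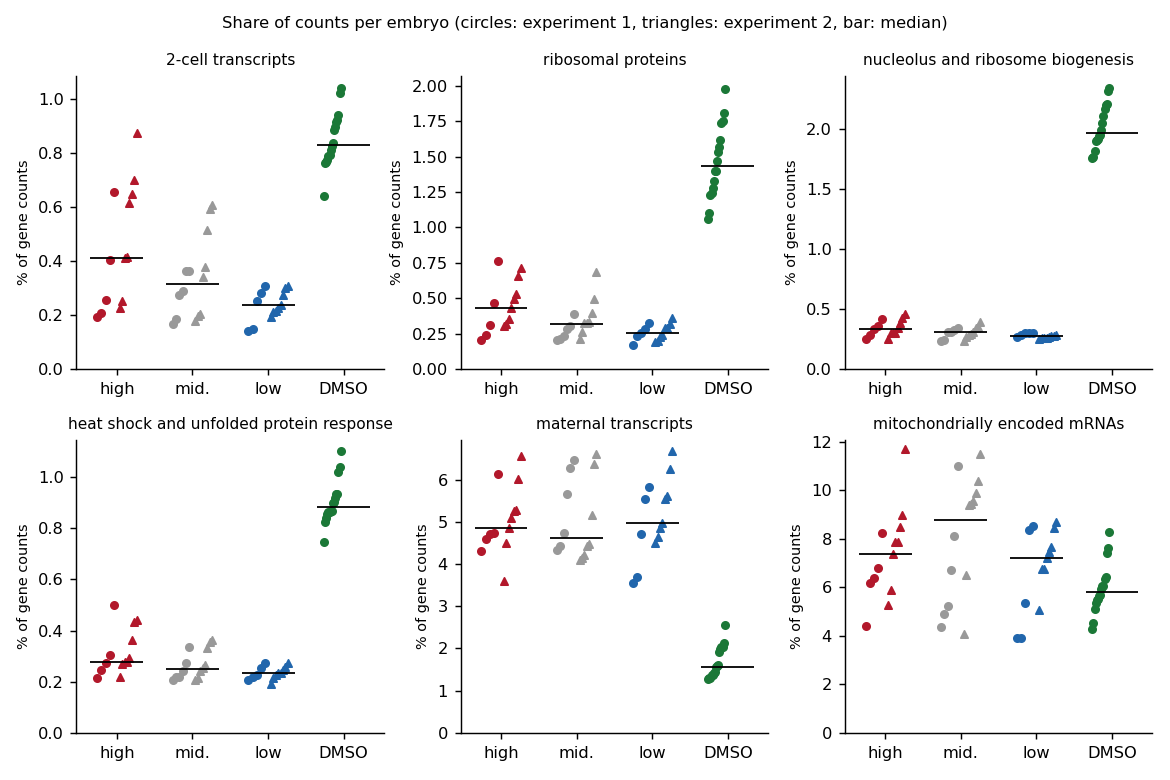
Percent of gene counts from 6 gene lists in each high-Zscan4, middle and low-Zscan4 SR1848 embryo and in DMSO embryos of experiment 1; circles are experiment 1, triangles experiment 2, and bars medians. High-Zscan4 embryos have medians of 0.409% (2-cell transcripts) and 0.431% (ribosomal proteins), against 0.238% and 0.256% in low-Zscan4 embryos, while the medians of maternal transcripts are 4.86% and 4.98%. In experiment 1 alone the 2-cell medians are 0.254% and 0.25%.

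A smaller share of chaperones and of metal and oxidant response genes passed. Of 37 heat shock and unfolded protein response genes 7 were higher and none lower (18.9%, against 4.2% of all genes), with a median of 0.41 log2. Hspa5, the chaperone of the endoplasmic reticulum, had 131 to 972 CPM (median 341) in high-Zscan4 embryos and 91.6 to 254 CPM (median 149) in low-Zscan4 embryos (1.47 log2, SE 0.26, edgeR adjusted p = 0.000703). Hspa8, its constitutive cytosolic relative, was higher by 1.44 (SE 0.26), and Hspa2, a relative best known from germ cells, by 2.63 (SE 0.54). The DMSO median was above both group medians for Hspa5 (1130 CPM), although DMSO embryos (655 to 1520 CPM) overlapped the high-Zscan4 ones. For Hspa2 the DMSO median lay between them (25.7 CPM, against 52.9 in high-Zscan4 and 6.57 in low-Zscan4 embryos). Of 25 genes of the oxidant and metal response 4 were higher (16.0%, median 0.17 log2). The metallothionein Mt1, which binds zinc and copper, had 23.0 to 381 CPM (median 105) in high-Zscan4 embryos and 2.07 to 105 CPM (median 14.5) in low-Zscan4 embryos (2.63 log2, SE 0.51, edgeR adjusted p = 0.00169). Mt2 was higher by 1.86 (SE 0.44) and the peroxidase Gpx1 by 1.48 (SE 0.34); without embryos 15 and 18 of experiment 2 their adjusted p-values were 0.085 and 0.0705, and the lists had 4 higher and 1 lower (heat shock) and 1 higher (metal and oxidant response).

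Machinery of transcription, splicing and division had a few higher genes in each list, where 4.2% of all genes were higher and 1.27% lower. Among 64 genes of RNA polymerase II and elongation 7 were higher (10.9%, median 0.16 log2), including Supt4a of the DSIF elongation factor (1.66, SE 0.31, edgeR adjusted p = 0.00107), Gtf2f1 of TFIIF (1.48, SE 0.30) and Taf7 of TFIID (1.66, SE 0.41). Of 55 spliceosome genes 7 were higher and 1 lower (12.7% and 1.82%, median 0.16). Cdc5l, of the Prp19 complex, had 19.6 to 188 CPM (median 92.5) in high-Zscan4 embryos and 7.62 to 26.1 CPM (median 15.1) in low-Zscan4 embryos (2.45 log2, SE 0.35, edgeR adjusted p = 0.000104), and all 13 high-Zscan4 embryos were above the low median. Sf3b5 and U2af1, which help to define the branch point and the 3′ splice site, were higher by 1.81 and 1.41. Of 70 genes of replication and the cell cycle 7 were higher (10.0%, median 0.06): Cdk1, the mitotic kinase, by 1.98 (SE 0.37), the origin licensing factor Cdc6 by 1.5 (SE 0.30) and the mitotic kinase Plk1 by 0.57 (SE 0.14). Without embryos 15 and 18 of experiment 2 these 3 lists had 2, 1 and 3 higher genes, and without embryo 4 of experiment 1 they had 3, 2 and 3; scaling to the maternal list left 2 in the cell cycle list and gave an adjusted p of 0.0593 for Plk1.

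In smaller numbers, members of further lists passed. The background over all genes was 4.2% higher and 1.27% lower, and the proteasome, oxidative phosphorylation and sterol lists were near or below the share of higher genes. Of 37 proteasome genes 2 were higher (5.41%) and 1 lower (2.70%); Psmd7 of the regulatory lid was higher by 1.78 (SE 0.38), Psmd12 by 0.89 (SE 0.25), and the assembly chaperone Psmd9 was lower by -0.54 (SE 0.16). Of 66 nuclear genes of oxidative phosphorylation 4 were higher (6.06%, median 0.13), among them Cox4i1 (1.46, SE 0.26) and Cox7b (1.44, SE 0.37) of complex IV and Uqcrq (1.60, SE 0.34) of complex III. Of 51 translation factors 4 were higher (7.84%, median 0.16), among them the elongation factor Eef2 (0.66, SE 0.16), Eif6 (0.54, SE 0.15) and the poly(A)-binding protein Pabpc1 (1.20, SE 0.35). The p53 list had 3 higher of 23 (13.0%, median 0.26), the checkpoint protein Sfn, the death effector Bax and the kinase inhibitor Cdkn1a (2.34, 1.12 and 0.92 log2). The share of counts from the p53 list was above the low median in 4 high-Zscan4 embryos and below it in 9. None of its genes passed without embryos 15 and 18 of experiment 2, or with detected genes as a term. In the sterol and lipid list 1 of 37 was higher (2.70%), Fdps of isoprenoid synthesis (1.91, SE 0.52). Of 22 lineage factors tested, 2 were higher (9.09%, median 0.33): Klf4, with 7.31 to 49.1 CPM (median 15.9) in high-Zscan4 and 1.07 to 20.9 CPM (median 8.19) in low-Zscan4 embryos, and the epithelial factor Elf3 (1.25 and 1.26 log2). Psmd12, Psmd9, Eif6, Pabpc1, Bax, Cdkn1a, Sfn, Klf4, Elf3 and Cox7b each lost the call without embryo 4 of experiment 1 (adjusted p = 0.057 to 0.13), and Fdps without embryo 18 of experiment 2 (0.109).

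Few or no members of the remaining lists passed. The shares each way were 1.85% for heterochromatin and DNA methylation and 1.72% for DNA repair. Over all genes they were 4.2% higher and 1.27% lower. Of 54 heterochromatin and DNA methylation genes 1 was higher, the corepressor Trim28 (1.62, SE 0.39), and 1 lower, Cbx5 or HP1 alpha (-0.69, SE 0.18), with a median of 0. Of 58 DNA repair genes the poly-ADP-ribosyl transferase Parp2 was higher (1.48, SE 0.42) and the kinase Chek1 lower (-0.43, SE 0.11), with a median of -0.05; the Parp2 call was lost without embryo 4 of experiment 1 (adjusted p = 0.137) and in 6 further settings that left out 1 embryo, and the Chek1 call without embryos 15 and 18 of experiment 2 (0.068) and with maternal scaling (0.0509). ZSCAN4 is known for a role at telomeres in stem cells, and of 30 telomere and meiotic recombination genes none passed (median 0.08), with Rif1 at 0.09 (SE 0.12, edgeR adjusted p = 0.799) and Syce2 at -0.22 (SE 0.10, edgeR adjusted p = 0.198). Median shares of counts in high-Zscan4 and low-Zscan4 embryos were 0.267% and 0.294% for this list and 0.278% and 0.308% for DNA repair. The share was below the low median in 10 high-Zscan4 embryos and above it in 3 for the telomere list. For DNA repair it was below in 11 and above in 2, and these shares were not tested. None of 13 mitochondrial mRNAs passed (mt-Cytb 0.22, SE 0.16; mt-Atp6 0.21, SE 0.15), nor any of 20 histone genes (Hist1h2bh 0.52, SE 0.19; Hist2h3c1 -0.62, SE 0.35). None of 18 NR5 and orphan receptor genes passed (Nr6a1 0.12, SE 0.12; Esrrg -0.13, SE 0.20). Nr5a2 itself had 5.37 to 29.7 CPM (median 14.6) in high-Zscan4 embryos, 7.24 to 27.1 CPM (median 12.5) in low-Zscan4 embryos and 93.8 to 191 CPM (median 115) in DMSO embryos. Its fold change was 0.31 (SE 0.27, edgeR adjusted p = 0.628).

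Oocyte transcripts went both ways. Of 70 tested 5 were lower and 2 higher (7.14% and 2.86%, against 1.27% and 4.2% of all genes), with a median of -0.02, and their share of counts was 3.59% to 6.55% (median 4.86%) in high-Zscan4 embryos and 3.55% to 6.67% (median 4.98%) in low-Zscan4 embryos. DMSO embryos had 1.27% to 2.56%. Dazl, a germ cell RNA-binding protein (chr17:50279395-50293636, minus strand), had 94.2 to 493 CPM (median 247) in high-Zscan4 embryos, 271 to 984 CPM (median 535) in low-Zscan4 embryos and 15.7 to 106 CPM (median 33.2) in DMSO embryos. All 13 high-Zscan4 embryos were below the low median (-0.99 log2, SE 0.19, edgeR adjusted p = 0.00119). Bmp15, an oocyte growth factor, had 354 to 2400 CPM (median 1690) in high-Zscan4 embryos and 1350 to 3550 CPM (median 2550) in low-Zscan4 embryos (-0.74, SE 0.16, edgeR adjusted p = 0.00371). Pabpc1l, Khdc1b and Oosp2 were the other lower ones (-0.59, -0.51 and -0.65). Omt2b and Omt2a, oocyte genes that share reads, were higher by 0.65 (SE 0.15) and 0.43 (SE 0.12); Omt2b had 4780 to 8020 CPM (median 5670) in high-Zscan4 embryos and 1920 to 6190 CPM (median 4080) in low-Zscan4 embryos. Without embryos 15 and 18 of experiment 2, or without embryo 4 of experiment 1, 2 of the list were lower.

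Of the 12 lower genes with the largest fold changes, several are also high in SR1848 relative to DMSO embryos. Pla2g4c, a cytosolic phospholipase, had 578 to 2980 CPM (median 1870) in high-Zscan4 embryos, 1370 to 3930 CPM (median 3360) in low-Zscan4 embryos and 47.0 to 273 CPM (median 139) in DMSO embryos (-0.92 log2, SE 0.19, edgeR adjusted p = 0.00302). Dph6, of diphthamide synthesis, had 47.0 to 585 CPM (median 190) in high-Zscan4 and 142 to 772 CPM (median 467) in low-Zscan4 embryos (-1.36, SE 0.32, edgeR adjusted p = 0.00792). Scin, an actin-severing protein, had medians of 28.5 and 61.7 CPM in high-Zscan4 and low-Zscan4 embryos and 2.64 CPM in DMSO embryos (-0.98, SE 0.22). Chmp3, of the ESCRT-III membrane scission complex, and Trappc2, of a vesicle tethering complex, were lower by -0.94 and -0.92. For Fam122b (-1.21) and Ppm1e, a phosphatase (-1.11), DMSO medians of 12.3 and 5.19 CPM stood nearer those of high-Zscan4 embryos (13.0 and 9.16) than of low-Zscan4 embryos (30.7 and 14.6). Aldh6a1 (-0.92), Tm2d1 (-0.89), Camkmt (-0.88) and the membrane glycoprotein Cd200 (-1.70) complete the 12. Cd200, Tm2d1, Ppm1e, Aldh6a1 and Camkmt lost the call in many settings that left out 1 embryo.

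Set against SR1848 embryos of experiment 1, DMSO embryos had a higher median for most of the higher genes and for few of the lower genes. The DMSO median was above the median of all SR1848 embryos of experiment 1 for 395 of the 447 higher genes (88.4%, against 45.5% of all genes) and for 27 of the 135 lower genes (20.0%). For 371 higher genes it exceeded the medians of high-Zscan4 and low-Zscan4 embryos of experiment 1, for 37 it lay between them and for 39 it was below both. Of the lower genes 99 had a DMSO median below both groups, 11 between and 25 above both. The shares of all genes in these positions were not computed, so these counts have no background beside them. For genes above or below both groups, it was not counted which group stood nearer to DMSO. The 39 higher genes with less in DMSO include Tcstv1, 6 genes of the Gm6763 group and Usp17lc, and also Dusp6, a MAP kinase phosphatase (medians 44.2, 16.4 and 3.47 CPM in high-Zscan4, low-Zscan4 and DMSO embryos). The DMSO and SR1848 embryos share no sample, but the SR1848 medians of experiment 1 include embryos of the split.

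DMSO embryos of experiment 1 were split by the same Zscan4 sum, 5 against 5, at 72.5 to 123 CPM and 32.9 to 42.1 CPM. No gene passed in edgeR (0% higher and 0% lower of 12073), with 1142 at an unadjusted p under 0.05. Of 435 genes higher in high-Zscan4 SR1848 embryos and tested there, 208 had a positive fold change (51.4% of all genes did), 31 a positive one with an unadjusted p under 0.05 (4.99% of all genes) and 35 a negative one with such a p. Of 132 lower genes 48 had a negative fold change (48.6% of all genes did), 3 of them with an unadjusted p under 0.05 (4.46% of all genes), and 16 had a positive one with such a p. The DMSO split spans a smaller difference in Zscan4 than the SR1848 split, so the splits are not of equal contrast. Tested directly within experiment 1, the split differed between SR1848 and DMSO embryos for 5 of 13727 genes by edgeR, 4 with a more positive difference in SR1848 embryos (0.0291%) and 1 with a more negative one (0.00728%). Some of these passed the low-count filter only through their levels in DMSO embryos.

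Library depth overlapped between the groups. Totals were 4148197 to 7845212 counts (median 5089229) in high-Zscan4 embryos and 4093794 to 7020220 (median 4923615) in low-Zscan4 embryos, a difference of 0.08 log2 (2-sided permutation test within experiment, 13 against 13, p = 0.487, adjusted p = 0.487 over 4 tests). At a common depth of 1000000 counts, 11236 to 14650 genes (median 13177) were detected in high-Zscan4 embryos and 12090 to 13383 (median 12760) in low-Zscan4 embryos (permutation p = 0.365, adjusted p = 0.487). The experiments went opposite ways: high-Zscan4 and low-Zscan4 medians were 12388 and 12760 in experiment 1 and 13386 and 12745 in experiment 2. The high-Zscan4 embryos were more spread out, with the 2 lowest and several of the highest values of the 26. The count table also holds entries for the B1 and B2 SINE repeats. B1 had medians of 6.24 CPM in high-Zscan4 and 6.05 CPM in low-Zscan4 embryos (0.42 log2, permutation p = 0.224) and B2 of 9.96 and 5.11 CPM (0.37 log2, permutation p = 0.297), both with adjusted p = 0.487.

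Markers of other cells are given for the whole lists. Of 20 cumulus and granulosa markers 3 were tested and none passed (Kitl -0.75, SE 0.42; Col4a2 0.21, SE 0.46), with 0.000805% to 0.00986% of counts in high-Zscan4 and 0.00105% to 0.00490% in low-Zscan4 embryos; Amh and Ptx3 were at 0 in all 26. Of 17 spermatid markers 3 were tested and none passed (Odf2 -0.07, SE 0.12; Gapdhs 0.19, SE 0.49), with 0.0351% to 0.107% of counts in high-Zscan4 and 0.0373% to 0.101% in low-Zscan4 embryos. Odf2 alone had 325 to 1070 CPM (median 597) in high-Zscan4 embryos and 358 to 999 CPM (median 598) in low-Zscan4 embryos, while Tnp1, Smcp and Spaca3 were at 0. Of 14 blood and epithelium markers 7 were tested and 1 was higher (14.3%, against 4.2% of all genes). It was Hba-a1, an alpha globin (1.46 log2, SE 0.40, edgeR adjusted p = 0.0247), with 6.93 to 88.5 CPM (median 14.8) in high-Zscan4 embryos and 0.853 to 16.9 CPM (median 7.26) in low-Zscan4 embryos. Its call was lost without embryo 4 of experiment 1 (adjusted p = 0.109), without embryo 15 of experiment 2 (0.0607), without embryos 15 and 18 (0.0926), with maternal scaling (0.057) and with detected genes as a term (0.128). The beta globins Hbb-bs and Hbb-bt and the keratins Krt5 and Krt14 were at 0 in all 26. The list made up 0.00425% to 0.0282% of counts in high-Zscan4 and 0.00323% to 0.0156% in low-Zscan4 embryos. Its highest shares among the 40 SR1848 embryos were in embryo 4 of experiment 1 (0.0282%) and embryos 18 and 15 of experiment 2 (0.0273% and 0.0224%). These are the embryos without which the counts of called genes fell most. DMSO embryos had 0.0138% to 0.0365% of counts from the list. The same SR1848 embryos had the highest cumulus and granulosa shares of the 40 (0.00986%, 0.0086% and 0.00548%), against 0.00594% to 0.0187% in DMSO embryos. The part of either list in the results was not tested.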

How the data were processed

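The tools named per the submitters' processing notes are bcl2fastq, Trim Galore 0.6.2, kallisto 0.46.1, R 3.5.1 and DESeq2 1.32.0. Builds mm10 and hg19 both appear in these notes; nothing read here states a use for hg19. The authors deposited 1 table of expected counts, as kallisto estimates them, with 119358 transcript entries, in which 26.3% of values are not whole (tolerance 1e-09). Gene names for transcripts came from GENCODE M21 (116770 entries) or the authors' deposited table (892); 1691 remained without a gene (0.557% of counts), and 5 special entries, such as the SINE repeats and GFP, were kept apart (0.158%). Counts were summed to 36176 genes and rounded. The table's columns name SR1848 embryos by a prefix that the labels do not explain, read as SR1848 because no other condition has the same set of embryo numbers in each experiment. The protocol keeps no strand, so antisense and overlapping genes are uncertain, as are near-identical copies. Library totals were 4093794 to 7845212 counts over the 26 embryos, and reads carry no molecular identifiers.

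The comparison used edgeR 4.0.16 in R 4.3.3 (TMM, filterByExpr, quasi-likelihood test, experiment as a term) with Benjamini-Hochberg adjustment over all genes tested; the fits were tested on simulated data. Levels are CPM. Single measures were compared with 2-sided permutation tests (100000 resamples within experiment, log2 scale, 1 added to CPM, 4 tests in the family; exact with 1 experiment). The smallest exact p for 5 against 5 embryos is 0.00794. DMSO embryos of experiment 1 were used without 3 low libraries of 19.

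The rule, members and 24 gene lists were chosen with earlier results of these data known. By the naming rule, called genes qualified if they averaged 3 log2 CPM or more, had 1 sign in both experiments, and bore a symbol that is not Gm with a number, does not end in Rik or -ps and is not a Zscan4 one (pseudogenes with other symbols stayed in); the 12 with the largest fold changes each way are named. Added to these are the 3 called genes with the smallest p of each list (the 2 most abundant where none was called). A gene that the rule names is not reported here. Other genes given with values, such as Gm6763, BB287469, Duxf3, Dusp6 and further list members, were chosen after their values were seen. Alternatives were other scalings (DESeq2's size factors, the maternal list), DESeq2 1.42.0, no low-count filter, a ranking cut into 2 groups with no middle, all Zscan4 genes for the ranking, Zscan4 as a continuous term, covariates, each experiment alone and leaving out each embryo.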

Additional observations from a re-analysis of the deposited data

Results flagged for a closer look

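Within a rank group of an experiment, a few single embryos stood apart from the others (the gap to the next embryo was above Dixon's 95% critical value). Of 136 groups examined, chance alone flags about 1 in 20. Embryo 18 of experiment 2, with the highest Zscan4 sum, had 404 CPM of Gm2a, against 0 to 9.73 CPM in the other high-Zscan4 embryos of that experiment. Embryo 15 of experiment 2, with the next highest Zscan4 sum, was the lowest high-Zscan4 embryo of its experiment for 3 genes that were lower in the comparison: Ppm1e at 0.721 CPM (others 5.45 to 15.7), Chmp3 at 12.1 CPM (76.2 to 159) and Trappc2 at 22.2 CPM (others at least 59.7). Embryo 4 of experiment 1 had 114 CPM of Rbm8a2, against 1.57 to 6.21 CPM in the other 4 high-Zscan4 embryos, and embryo 6 had 6.14% of counts from maternal transcripts, against 4.30% to 4.74%.

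Among low-Zscan4 embryos, H2-Q6 was high in embryo 7 of experiment 1 (7.96 CPM, others 0.952 to 1.28) and in embryo 10 of experiment 2 (11.2 CPM, others 0.226 to 1.42). Embryo 9 of experiment 1 was low for Scin (25.7 CPM, others 62.1 to 82.5), Pla2g4c (1370 CPM, others 2910 to 3770) and Camkmt (28.5 CPM, others 78.3 to 115), although these genes were otherwise higher in its group. Scin was also low in embryo 12 of experiment 2 (32.8 CPM, others 53.6 to 72.5). Embryo 16 of experiment 2 had the deepest library of its group, 7020220 counts, against 4090000 to 5020000 in the others.

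For 5 genes the split by Zscan4 differed between SR1848 and DMSO embryos of experiment 1 (edgeR interaction, adjusted over 13727 genes). Elovl6, a fatty acid elongase, had medians of 5.06 CPM in high-Zscan4 and 0 CPM in low-Zscan4 SR1848 embryos, against 127 and 272 CPM in the upper and lower DMSO groups (difference of log2 fold changes 6.47, adjusted p = 0.0224). Eif3c, a translation factor, had 21.2 and 5.80 CPM against 305 and 447 CPM (2.60, adjusted p = 0.027). Tnfrsf12a, a receptor of the TNF family, had 7.94 and 0 CPM against 58.1 and 78.3 CPM (6.16, adjusted p = 0.0378), and Gm14494 3.13 and 0.381 CPM against 54.0 and 89.9 CPM (4.16, adjusted p = 0.0461). Chdh, choline dehydrogenase, went the other way, with 21.4 and 31.3 CPM against 8.5 and 0.201 CPM (-5.12, adjusted p = 0.0461). A fold change against a group at 0 depends on the prior count, and each of the 5 genes had a median of 5.8 CPM or less in at least 1 group. Elovl6, Tnfrsf12a and Gm14494 did not pass the low-count filter in SR1848 embryos of experiment 1 alone. They entered this test through their levels in DMSO embryos.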

How the results depend on the processing

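No paired analysis was possible because within an experiment each replicate number names 1 SR1848 embryo, so high-Zscan4 and low-Zscan4 embryos share no number. Of 447 higher and 135 lower genes, the count changed by over 1.5 times for experiment 1 alone (0 and 0), experiment 2 alone (41 lower), no low-count filter (754 higher), a continuous Zscan4 term over 40 embryos (860 and 255), genes detected as a term (297 higher) and without embryos 15 and 18 of experiment 2 (234 and 43); the last 2 were chosen after seeing the data. Leaving out 1 embryo gave 284 to 527 higher and 66 to 173 lower genes; lower genes were 66, 89, 71 and 81 without embryos 4 and 13 of experiment 1 and 18 and 15 of experiment 2. RLE scaling kept 447 of the higher and 114 of the lower genes, maternal scaling 354 and 95, DESeq2 445 and 135, and the fit without the filter 400 and 109. In the DMSO split there was 1 higher gene without the filter and 2 higher and 40 lower with all 19 libraries; leaving out 1 embryo gave 0 to 1 higher and 0 to 3 lower. Leaving out 1 embryo gave 0 to 1 genes that differed between experiments. Among the single measures, genes detected at equal depth differed by 0.069 log2 in experiment 2 alone (exact permutation p = 0.0375), and B2 by 0.596 with all Zscan4 genes in the ranking (permutation p = 0.0343); without 1 embryo B2 ranged from 0.282 to 0.588, B1 from 0.254 to 0.537, genes detected from 0.015 to 0.042 and totals from 0.033 to 0.116. No called gene changed sign under any setting listed. The causes were not tested, apart from the smaller number of embryos or the larger number of genes that some settings use. Limits: with 5 embryos a side, experiment 1 alone called no gene; levels under about 1 CPM rest on a handful of counts; and counts of copies are shared estimates.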

Other observations

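Outside the lists and the naming rule, a few genes stood out after their values had been seen. Tmem72, a membrane protein gene, had medians of 1830 CPM in high-Zscan4, 645 CPM in low-Zscan4 and 17900 CPM in DMSO embryos (2.15 log2, SE 0.41, edgeR adjusted p = 0.00134). Ppp1r15a, which directs a phosphatase to the initiation factor eIF2 and so ends the integrated stress response, had medians of 243, 76.6 and 413 CPM (1.85 log2, SE 0.24), and all 13 high-Zscan4 embryos were above the low median. Znhit3, a factor of small nucleolar ribonucleoprotein assembly, had medians of 16.7, 3.52 and 652 CPM (3.32 log2, SE 0.49). B020031M17Rik, of the Tcstv group, had medians of 151, 7.46 and 7.05 CPM (4.32 log2, SE 0.56). Among lower genes, Skp1a, a core subunit of SCF ubiquitin ligases, had medians of 1500, 2300 and 473 CPM in high-Zscan4, low-Zscan4 and DMSO embryos (-0.54 log2, SE 0.13).

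GFP entries, which mark injected embryos elsewhere in the series, were at 0 to 0.661 CPM in high-Zscan4 embryos and 0 to 3.23 CPM in low-Zscan4 embryos. The 2-cell list and the ribosomal protein list, which share no gene, were both above the highest low-Zscan4 embryo in several high-Zscan4 embryos: embryo 4 of experiment 1 had 0.656% and 0.765% of counts from them, embryo 15 of experiment 2 had 0.698% and 0.716%, and embryo 18 of experiment 2 had 0.613% and 0.653%. Embryo 13 of experiment 2, with 0.873% and 0.531%, had the largest 2-cell share of the 40.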
